A study of Mus musculus with 16 samples.

Results

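Complement is a set of plasma and cell-surface proteins that mark cells and debris for removal. In the classical pathway the C1q complex, built of A, B and C chains, binds its target and the attached proteases C1r and C1s cleave C4 and C2, which leads to cleavage of C3 and release of the peptide C3a. C1 inhibitor, the product of Serping1, blocks C1r and C1s. In mouse tissues the C1q chains are made mainly by resident macrophages, whereas C4 and C1 inhibitor are also made by fibroblasts, endothelium and other stromal cells.

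The components described here are the 7 genes C1qa, C1qb, C1qc, C3, C4b, C3ar1 and Serping1, taken as every probe that carries 1 of these symbols among the 25697 probes of Illumina MouseRef-8 arrays. C1qa, C1qb, C1qc, C4b, C3ar1 and Serping1 had 1 probe each. C3 had no named probe in the annotation used here and was not analysed. The probes of C1qa, C1qb, C1qc, C4b and Serping1 were detected on 16 of 16 arrays and are 5 of the 12246 probes that were tested. C3ar1, the receptor for C3a, was detected on 0 of 16 arrays.

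Each array held the heart RNA of 1 untreated C57BL/6 mouse 18 weeks old by its label, and there were 4 mice in each of 4 groups. Female and male cs-ERα-/- mice carried exon-3-floxed ERα alleles together with a Cre recombinase driven by the α-MHC promoter, which is active in cardiomyocytes, so other cells of the heart keep the gene. Female and male WT mice were ERα flox/flox. No WT mice carrying Cre are named, so the presence of Cre and the loss of ERα cannot be told apart. The design asks how expression differed by genotype, by sex and by their interaction.

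More probes were detected in cs-ERα-/- hearts (11882 to 12610) than in WT hearts (11492 to 11981), with 5 of the 8 cs-ERα-/- arrays above every WT array, and the part of this in the differences below was not tested. Esr1, the targeted gene, has 2 probes, both detected on 0 of 16 arrays, so they say nothing of the deletion. By qRT-PCR, the study reports lower ERα RNA in cs-ERα-/- hearts of both sexes. The 11 cardiomyocyte markers with a probe were all measured, and Myh6, the gene whose promoter drives Cre, differed by 0.05 on the log2 scale at its brighter probe (adjusted p = 0.495 from limma). Of these 11, 1 was called higher and 0 lower, namely Nppa, which encodes atrial natriuretic peptide (1.02, adjusted p = 3.03e-06 from limma), and Nppa was called in each sex. Values below are background-corrected, quantile-normalized log2 signals, called log2 signals. Differences are cs-ERα-/- minus WT unless stated, and a difference was called when its Benjamini-Hochberg adjusted p from limma over all 12246 probes was under 0.05. All 5 contrasts were fitted over the same 16 arrays, so the comparisons share samples. The labels name mice, and no label says which of the BeadChips of the study held an array.

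The 3 C1q genes lie next to each other on mouse chromosome 4 in the order C1qb, C1qc and C1qa, with no other annotated gene between them in the GRCm38.p6 gene table. Their promoters are shown because these genes moved together across the hearts, as described further on. RefSeq windows of 300 bases, with 250 bases before the start of the gene and 50 after it, were found for 4 of the 7 components, among them C1qb (chr4:136886151-136886450, minus strand, GRCm38.p6) and C1qc (chr4:136892865-136893164, minus strand, GRCm38.p6). Both are written 5′ to 3′ on the strand of the gene, and capitals mark the letters that matched a searched motif.
C1qb: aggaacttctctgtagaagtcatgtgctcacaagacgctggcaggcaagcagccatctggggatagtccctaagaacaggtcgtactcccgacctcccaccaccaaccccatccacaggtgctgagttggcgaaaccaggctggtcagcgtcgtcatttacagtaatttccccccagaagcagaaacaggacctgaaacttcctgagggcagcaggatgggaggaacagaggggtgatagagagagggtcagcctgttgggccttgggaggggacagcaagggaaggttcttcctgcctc
C1qc: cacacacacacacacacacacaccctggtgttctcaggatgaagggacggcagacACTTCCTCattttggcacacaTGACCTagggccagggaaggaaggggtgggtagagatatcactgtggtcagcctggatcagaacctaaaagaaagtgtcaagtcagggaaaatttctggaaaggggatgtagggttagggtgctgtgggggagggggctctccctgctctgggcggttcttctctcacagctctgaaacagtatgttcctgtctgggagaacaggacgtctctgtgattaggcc

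6 motifs were searched on both strands of these windows. GAGGAAGT, the core of a site for PU.1, the factor of myeloid genes, lay on the opposite strand of the C1qc window, 195 bases before the start, and was in 3.20% of all 32851 promoter windows. AGGTCA, a half-site of the estrogen response element that other nuclear receptors also read, lay on the opposite strand 174 bases before the C1qc start and was in 16.3% of all windows. The C1qb window held none of the 6 sequences. The others were GAAANNGAA, an interferon regulatory factor repeat found in 8.56% of windows, GGGANTTCC, a kB site found in 1.68%, TTCNNNGAA, a STAT site found in 8.30%, and TATAAA, the box bound by TBP, found in 13.6%. The motifs do not overlap one another in the C1qc window, and a match describes letters only.

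RNA of C1qb, C1qc, C4b and Serping1 was higher in cs-ERα-/- hearts than in WT hearts. Over both sexes, C1qb, C1qc, C4b and Serping1 were called higher and none of the components was called lower, that is 4 of the 5 tested, where 2.43% of all tested probes were called higher and 1.31% lower. The median difference of the 5 was 0.33 on the log2 scale, against -0.01 over all probes. The components were chosen with earlier results of these data known, so the count beside these shares is a description. The rises ran from 0.24 on the log2 scale for Serping1 to 0.59 for C4b. In bulk tissue more cells of a type and more RNA per cell cannot be told apart.

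**Figure D1:**
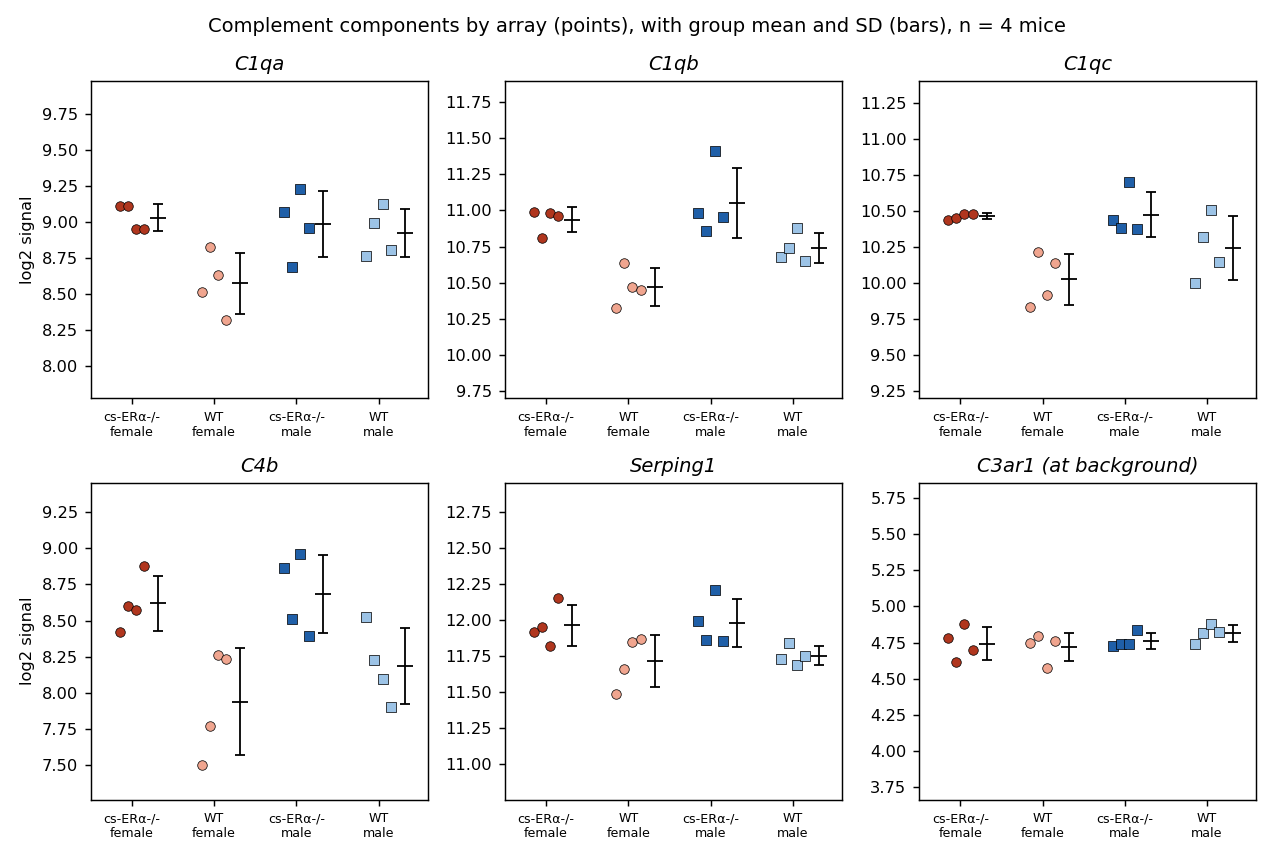
Log2 signal of 6 complement components (vertical axis, panels of equal height) in each of 16 hearts (points), with the mean and SD of each group of 4 mice (bars). The cs-ERα-/- females lie above the WT females without overlap for C1qa, C1qb, C1qc and C4b, and C3ar1 stays at background in every group.

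C1qb encodes the B chain of C1q. In females its log2 signals were 10.99, 10.81, 10.98 and 10.96 in cs-ERα-/- hearts and 10.32, 10.64, 10.47 and 10.45 in WT hearts. In males they were 10.98, 10.86, 11.41 and 10.95 in cs-ERα-/- hearts and 10.68, 10.74, 10.88 and 10.65 in WT hearts. The female groups did not overlap, and among males 3 of the 4 cs-ERα-/- hearts lay above the highest WT heart. With the sexes joined, the mean was 10.99 ± 0.18 for cs-ERα-/- and 10.60 ± 0.18 for WT (SD, n = 8 each). The genotype difference of C1qb was 0.39 ± 0.07 (SE), a 1.31-fold rise (limma adjusted p = 0.00111).

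C1qc encodes the C chain. Its log2 signals were 10.44, 10.45, 10.48 and 10.48 in cs-ERα-/- females, close to each other, against 9.84, 10.22, 9.92 and 10.14 in WT females. They were 10.44, 10.39, 10.71 and 10.37 in cs-ERα-/- males, against 10.00, 10.32, 10.51 and 10.15 in WT males. The females again did not overlap, while 1 WT male lay above 3 of the cs-ERα-/- males. Means over the sexes were 10.47 ± 0.10 for cs-ERα-/- and 10.14 ± 0.22 for WT (SD, n = 8 each), which put C1qc 0.33 ± 0.07 (SE) higher (limma adjusted p = 0.00634).

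C1qa encodes the A chain and was the C1q gene that missed the call over both sexes. In females its log2 signals were 9.11, 9.11, 8.95 and 8.95 in cs-ERα-/- hearts, against 8.51, 8.83, 8.63 and 8.32 in WT hearts. In males they were 9.07, 8.69, 9.23 and 8.96 in cs-ERα-/- hearts, against 8.76, 8.99, 9.12 and 8.80 in WT hearts. The female groups were separate and the male groups were intermixed. Means over the sexes were 9.01 ± 0.16 for cs-ERα-/- and 8.75 ± 0.26 for WT (SD, n = 8 each). The difference of C1qa was 0.26, with a 95% interval of 0.09 to 0.42 (limma adjusted p = 0.0719).

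C4b encodes the C4 protein that C1s cleaves. Its log2 signals were 8.42, 8.60, 8.57 and 8.88 in cs-ERα-/- females, against 7.49, 7.77, 8.26 and 8.23 in WT females. They were 8.87, 8.51, 8.96 and 8.39 in cs-ERα-/- males, against 8.53, 8.23, 8.09 and 7.90 in WT males. The female groups did not overlap, and 1 WT male lay above 2 of the cs-ERα-/- males. Means over the sexes were 8.65 ± 0.22 for cs-ERα-/- and 8.06 ± 0.33 for WT (SD, n = 8 each). At 0.59 ± 0.11 (SE), the genotype difference of C4b was the widest of the 5 (limma adjusted p = 0.00391). C4a, a near-identical copy of C4b, has its own probe, which was detected on 1 of 16 arrays, and whether RNA of the copy binds the C4b probe was not tested.

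Serping1 encodes C1 inhibitor, the brake on the first step. Its log2 signals were 11.92, 11.96, 11.82 and 12.16 in cs-ERα-/- females, against 11.49, 11.66, 11.85 and 11.87 in WT females. They were 12.00, 11.86, 12.21 and 11.86 in cs-ERα-/- males, against 11.73, 11.84, 11.69 and 11.75 in WT males. Here the male groups were separate, by a narrow margin, and 2 WT females lay above the lowest cs-ERα-/- female. Means over the sexes were 11.97 ± 0.14 for cs-ERα-/- and 11.74 ± 0.13 for WT (SD, n = 8 each), and Serping1 was 0.24 ± 0.06 (SE) higher (limma adjusted p = 0.0305). Of the 4 calls it was the one lost most often, since it fell away when any 1 of 7 arrays was left out, namely male cs-ERα-/- replicates 1 and 3, female cs-ERα-/- replicate 4, male WT replicates 1 and 3 and female WT replicates 1 and 2 (adjusted p up to 0.0712 from limma).

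C3ar1, carried by myeloid cells, lay between 4.57 and 4.88 on the log2 scale on all arrays, with a lowest detection p of 0.267. Its level was at background in cs-ERα-/- and WT hearts alike, so no difference could be measured.

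Within females, C1qb, C1qc and C4b were called higher, 3 of the 5 tested, where 0.555% of all tested probes were called higher. The female differences were 0.47 for C1qb (adjusted p = 0.0165), 0.44 for C1qc (adjusted p = 0.0344) and 0.68 for C4b (adjusted p = 0.0491), from limma with n = 4 each, and C1qa missed the call at 0.46 (adjusted p = 0.0621). Serping1 differed by 0.25 in females (adjusted p = 0.248 from limma). All cs-ERα-/- females lay above all WT females for 4 of the 5 components, where 3.23% of all tested probes did so. These female calls rest on few arrays: without female cs-ERα-/- replicate 1, female cs-ERα-/- replicate 3 or female WT replicate 1 the count was 0, without female cs-ERα-/- replicate 2 or 4 it was 1, and with median scaling it was 0. The female call of C4b was lost in 8 of 10 other settings, and those of C1qb and C1qc in 4 each. The C4b call was also lost without any 1 of 10 arrays, namely all 4 female cs-ERα-/- arrays, female WT replicates 1 and 2, male cs-ERα-/- replicates 1 and 2 and male WT replicates 2 and 3 (C4b adjusted p up to 0.230 from limma).

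Within males no component was called, where 0.955% of all tested probes were called in either direction. At an unadjusted p under 0.05, however, 4 of the 5 (C1qb, C1qc, C4b and Serping1) were higher in cs-ERα-/- males by limma, where 12% of all tested probes passed that threshold in either direction, and an ordinary linear model also called 0 after adjustment. The male differences were 0.31 for C1qb (95% interval 0.12 to 0.51, adjusted p = 0.127), 0.23 for C1qc (0.03 to 0.43, adjusted p = 0.334), 0.50 for C4b (0.16 to 0.83, adjusted p = 0.175) and 0.23 for Serping1 (0.05 to 0.41, adjusted p = 0.276), from limma with n = 4 each. C1qa differed by 0.06 in males, with an interval of -0.17 to 0.30 (adjusted p = 0.875 from limma). Serping1 was the component whose male groups were separate, as 3.55% of all tested probes were in that direction.

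Whether the genotype difference depended on sex was tested by the interaction, which called none of the components and 0% of all tested probes. For the interaction 456 probes, 3.72% of all tested, had an unadjusted p under 0.05 from limma. The female difference exceeded the male one for all 5 components, by 0.02 for Serping1 up to 0.39 for C1qa. C1qa was the 1 component of 5 that passed an unadjusted threshold of 0.05 (adjusted p = 0.999 from limma), as 3.72% of all tested probes did. The female calls for C1qb, C1qc and C4b are therefore not shown to be particular to females.

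Between the sexes, averaged over genotypes, the female minus male difference was below 0 for all 5 components, at -0.19 for C1qb, -0.16 for C4b, -0.15 for C1qa, -0.11 for C1qc and -0.03 for Serping1. None was called, where 1.27% of all tested probes were, and C1qb had the lowest adjusted p, at 0.190 from limma. C1qb was the 1 component of 5 with an unadjusted p under 0.05, where 12.9% of all tested probes were under it.

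**Figure D2:**
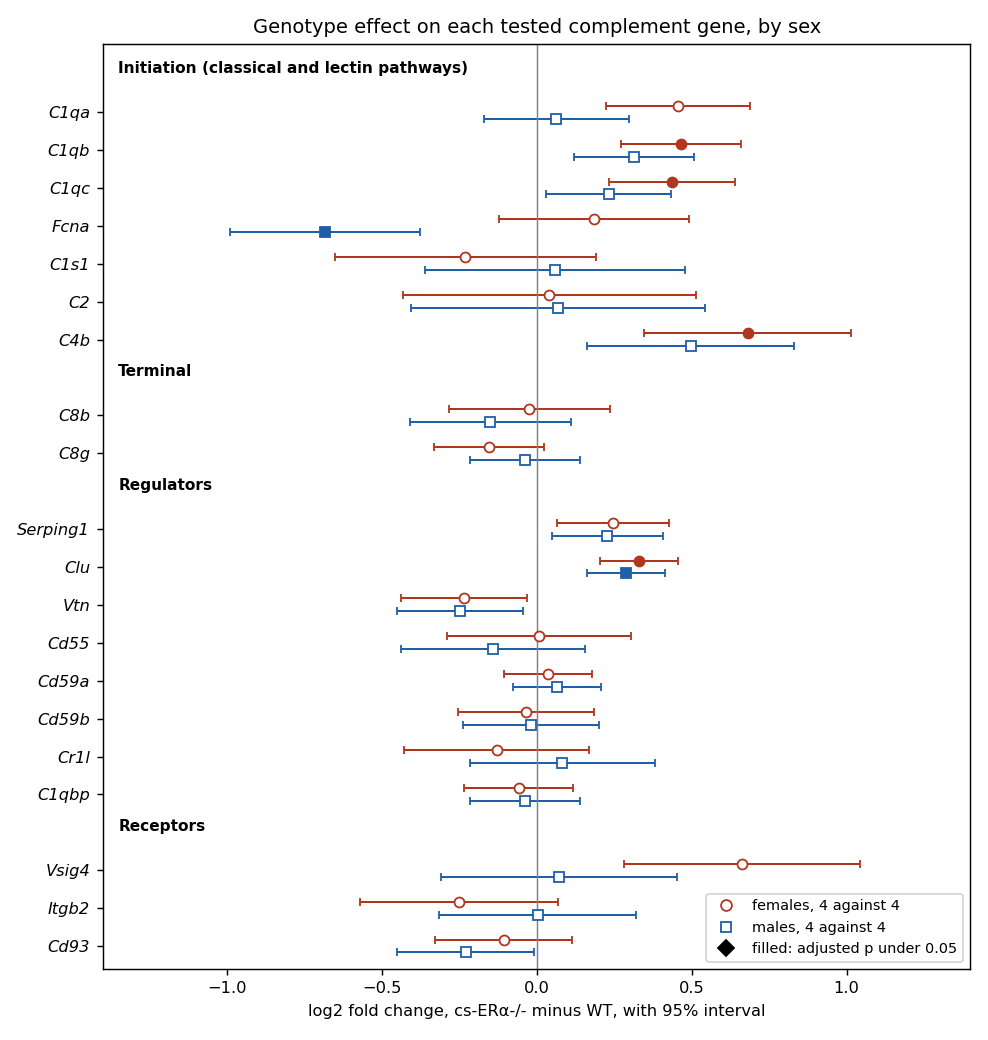
Genotype difference (horizontal axis, log2 signal of cs-ERα-/- minus WT, with its 95% interval) of the 20 complement genes that were tested, in females (circles) and in males (squares), 4 mice a group. Filled symbols passed the adjusted p of 0.05, as C1qb, C1qc, C4b and Clu did in females and Clu and Fcna in males.

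The rest of the pathway was read from lists of 64 complement genes, of which 48 had a named probe and 20 were tested. Besides C1qb, C1qc, C4b and Serping1, 1 further gene was called by genotype, so that 5 were higher and 0 lower. Outside the components this is 1 of 15. Over all tested probes 2.43% were called higher and 1.31% lower. The 15 tested genes that are not among the components had a median difference of -0.07, with 4 positive and 11 negative. The median over all tested probes was -0.01.

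That further gene was Clu, which encodes clusterin, a chaperone that binds the terminal complement complex. Its mean was 13.98 ± 0.05 for cs-ERα-/- and 13.67 ± 0.11 for WT (SD, n = 8 each), so Clu was 0.31 ± 0.04 (SE) higher (limma adjusted p = 0.00013). All 8 cs-ERα-/- hearts lay above all 8 WT hearts, as 0.392% of tested probes did, and Clu was called in females (0.33, adjusted p = 0.00773 from limma) and in males (0.29, adjusted p = 0.0201 from limma). With median scaling the difference over both sexes was 0.29 and the call was lost (adjusted p = 0.132 from limma). The female and male calls were each lost in 4 of 10 other settings, namely median scaling, no intensity trend and the ordinary linear model on either set of values. The female call was also lost without female WT replicate 1, and the male call without male cs-ERα-/- replicate 1 or 4 or male WT replicate 1 or 3.

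Among the genes that start the pathway, C1s1, the protease that cleaves C4, did not differ by a call at its brighter probe (-0.09, adjusted p = 0.811 from limma). A dimmer kept probe lay near background, and its test is not given here. Its log2 signals were 5.25, 5.48, 5.78 and 5.53 in cs-ERα-/- males, against 5.35, 5.33, 5.06 and 4.99 in WT males. In females they were 5.37, 5.33, 4.83 and 5.53 in cs-ERα-/- hearts, against 5.04, 5.39, 5.19 and 5.49 in WT hearts. C2, which C1s also cleaves, differed by 0.05 between genotypes (adjusted p = 0.906 from limma). At the brighter C1s1 probe and the C2 probe, neither gene moved with C4b by a call. C2 was higher in females than in males by 0.59, short of the call (adjusted p = 0.0799 from limma), and C1ra was at background.

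Fcna encodes ficolin A, a lectin-pathway recognition protein made by macrophages. It was called lower in cs-ERα-/- males, the 1 complement gene called lower in any genotype contrast. Its log2 signals were 7.63, 7.46, 7.61 and 7.17 in cs-ERα-/- males, against 7.91, 8.36, 8.43 and 7.90 in WT males, a difference of -0.68 (adjusted p = 0.0231 from limma). In females it differed by 0.19 (adjusted p = 0.708 from limma), and the interaction of 0.87 was not called (unadjusted p = 0.00042, adjusted p = 0.757 from limma). The male groups did not overlap, but the share of all tested probes separate in this direction was not computed. In the opposite direction, cs-ERα-/- males above WT males, it was 3.55%. The call was lost when male cs-ERα-/- replicate 2 or 4 or male WT replicate 2 or 3 was left out, and also without the intensity trend and in the ordinary linear model on either set of values (adjusted p up to 0.139).

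Of the regulators other than Serping1 and Clu, Vtn, which encodes vitronectin, an inhibitor of the terminal complex, was at 9.07 ± 0.13 for cs-ERα-/- and 9.32 ± 0.16 for WT (SD, n = 8 each) and missed the call (-0.24, adjusted p = 0.0553 from limma). The membrane inhibitors Cd55, Cd59a, Cd59b and Cr1l, and C1qbp, which encodes a mitochondrial protein that can bind C1q, differed by -0.07 to 0.05, with adjusted p-values of 0.628 or more from limma. The terminal genes C8b and C8g differed by -0.09 and -0.10 and were not called. Of the receptors, Vsig4, a macrophage receptor for C3 fragments, differed by 0.37 (adjusted p = 0.126 from limma), and Itgb2 and Cd93 were not called either.

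Many complement genes were not tested. The 28 complement genes with a named probe that did not pass the detection filter include Cfb of the alternative pathway, the lectin-pathway genes Mbl1, Mbl2, Masp1 and Masp2, the terminal genes Hc, C6, C8a and C9, and the receptors C5ar1, C5ar2, Cr2, Itgam and Itgax besides C3ar1. Of 4 listed genes of the alternative pathway's amplification, Cfb was the 1 with a named probe in the annotation used here, so the others were not analysed. The study itself lists Cfp, complement factor properdin, among the genes higher in cs-ERα-/- hearts, and that result was not examined here.

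The components fell into 2 sets by how they varied from mouse to mouse. After the mean of its own group was taken from each heart, C1qb and C1qc correlated at 0.78 (Pearson) over 16 hearts, C1qa and C1qb at 0.70, and C1qa and C1qc at 0.60. C4b and Serping1 correlated at 0.79. Between these sets values were lower, from 0.00 for C1qa with C4b to 0.48 for C1qb with Serping1. The correlations within the sets were repeated without the 2 hearts farthest from the median of the first gene. C1qb with C1qc then gave 0.77, without male cs-ERα-/- replicates 2 and 3. C4b with Serping1 gave 0.83, without replicate 1 of the WT females and of the WT males. Without male cs-ERα-/- replicate 2 and female WT replicate 4, C1qa correlated at 0.70 with C1qb and 0.82 with C1qc. These are descriptions of 16 hearts that share the arrays' normalization.

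**Figure D3:**
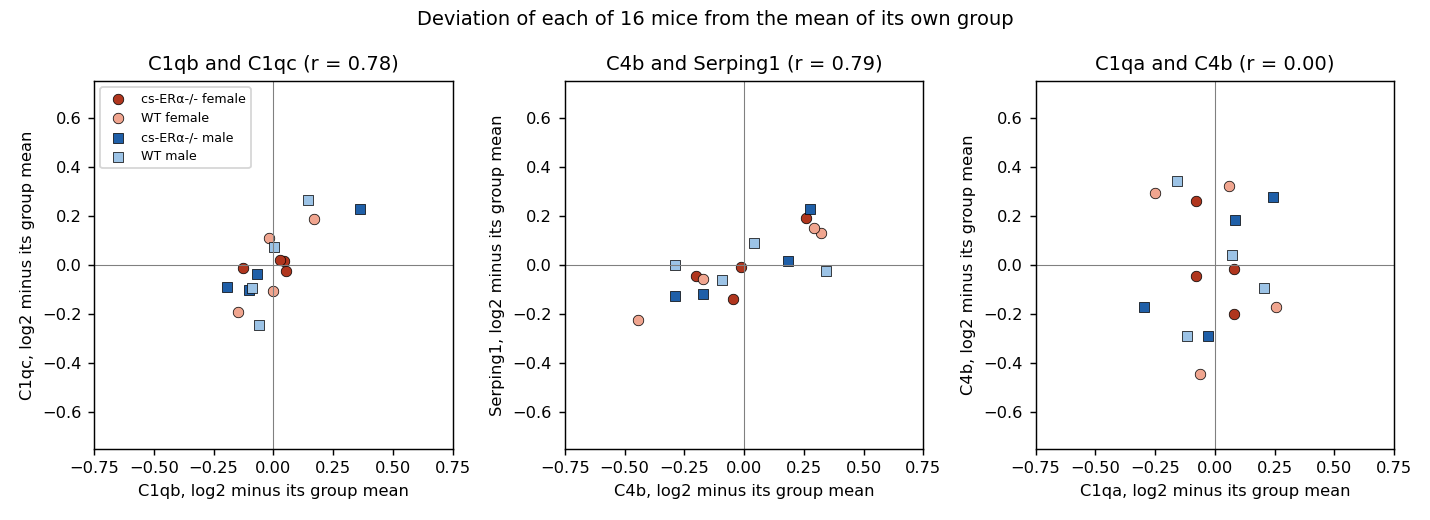
Each point is 1 of 16 hearts, placed by the deviation of its log2 signal from the mean of its own group for 2 genes. The points rise together for C1qb and C1qc (r = 0.78) and for C4b and Serping1 (r = 0.79), and show no slope for C1qa and C4b (r = 0.00).

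Some hearts stood at the end of their group for most components. Male cs-ERα-/- replicate 3 was the highest of its group for all 5 components, and female WT replicate 1 was the lowest of its group for 4 of the 5. No other heart was highest or lowest in its group for more than 3.

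Of 8578 other genes, those whose deviations were most like the mean of C1qa, C1qb and C1qc over the 16 hearts were Prkcz (Pearson r = 0.91), Emcn (0.91), Clec3b (0.89), Ptgis (0.89) and Cbr2 (0.88). The macrophage genes Adgre1 (0.66), Lyz2 (0.65) and Mrc1 (0.58) stood at ranks 139, 159 and 287, but Vsig4 (0.44) stood at rank 773 and Cd163 (0.22) at rank 2159, near C4b (0.17) at rank 2606. Over all 27 tested macrophage markers the ranks ran from 12 for Cd14 (0.83) to 6264 for Fcgr1 (-0.20), with a median r of 0.55. For the mean of C4b and Serping1, a reference chosen after the values were seen, the closest of 8579 genes were Rarres2 (0.84), Evi2a (0.83), Slc23a3 (0.80), Ppl (0.78) and Ang (0.76). No gene stood among the closest 5 of both sets, but lists this short from so many genes seldom share one, so this says little.

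Most macrophage markers differed by genotype in the same direction as the C1q genes. Of 30 macrophage markers with a probe, 27 were tested. In cs-ERα-/- hearts 15 were called higher and 0 lower, where 2.43% of all tested probes were called higher and 1.31% lower. The list was drawn up with earlier results of these data known. Its count and its sum therefore describe these hearts and test nothing against all probes. The median difference of the 27 markers was 0.35, against -0.01 over all probes. The summed linear signal of the 27 was 31320.6 to 41813.3 in cs-ERα-/- hearts and 22962.9 to 30298.2 in WT hearts, ranges that do not overlap. Of single tested probes, 0.392% had all 8 cs-ERα-/- hearts above all 8 WT hearts. Adgre1, the F4/80 antigen, rose by 0.48 (adjusted p = 0.00447), Mrc1, the mannose receptor, by 0.38 (adjusted p = 0.00036) and Lyz2, a lysozyme, by 0.50 (adjusted p = 0.000405), all from limma, whereas Cd163 differed by 0.17 (adjusted p = 0.295). Ctss, Ccr2 and Ptprc were at or near background.

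Within groups, the log2 of this macrophage sum correlated with the mean of the 3 C1q genes at 0.91 over 16 hearts, and at 0.87 without the 2 hearts farthest from the median, male cs-ERα-/- replicates 2 and 3. With C4b and Serping1 it correlated at 0.16 and 0.36 over 16 hearts, and at -0.14 and -0.01 without the same 2. The C1q genes thus followed this sum from heart to heart, and C4b and Serping1 did so little or not at all. Single macrophage markers had a median r of 0.55 with the C1q mean, from -0.20 to 0.83, and Emcn alone reached 0.91. The same r was not computed for sums of other cell markers, so whether it is particular to macrophage markers was not tested. What part the macrophage markers have in the genotype difference of the components was not tested.

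**Figure D4:**
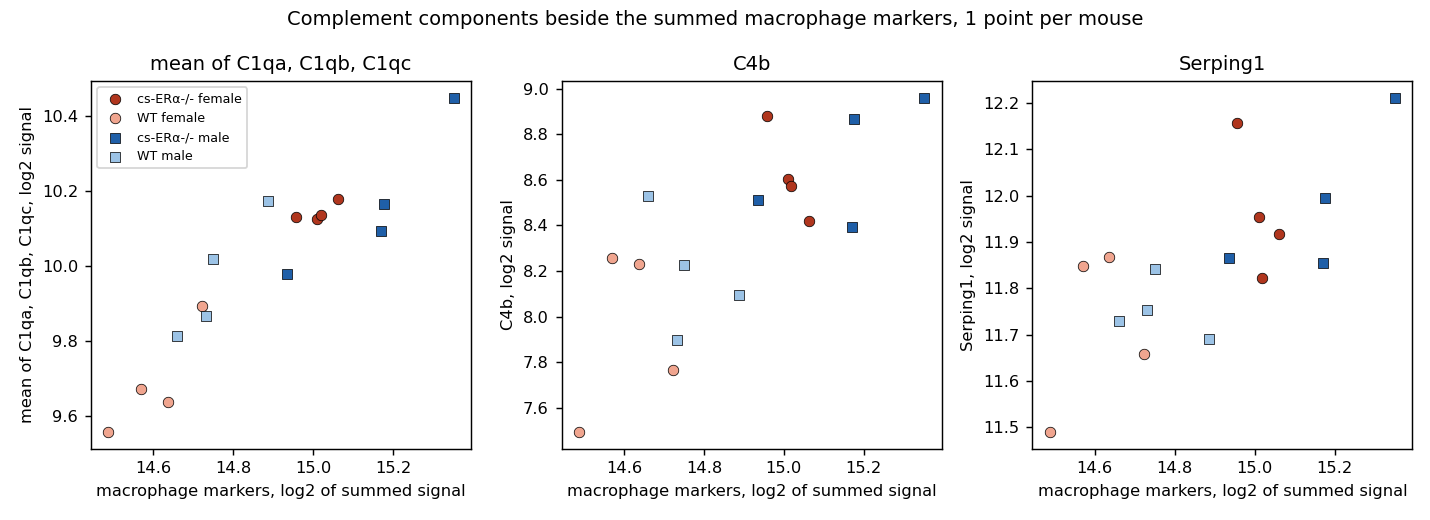
Log2 of the summed signal of 27 macrophage markers (horizontal axis) against the log2 signal of the C1q mean, C4b and Serping1 (vertical axes), 1 point per heart. The cs-ERα-/- hearts lie to the right of the WT hearts in each panel, from 14.93 upward against 14.89 at most.

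Markers of other cells gave fewer calls. Over all tested probes 2.43% were called higher and 1.31% lower, so 0 calls in a short list lie near these shares. Fibroblast markers, which mark cells known to make C4 and C1 inhibitor, had 2 called higher (Dcn and Dpt) and 0 lower of 14 tested, with a median difference of 0.10 and summed signals of 26166.8 to 31266 in cs-ERα-/- hearts and 25092.3 to 28589.8 in WT hearts. Endothelial markers had 0 called of 9, with 1 positive and 8 negative differences and a median of -0.07. Of markers of liver, the main source of plasma complement, 0 of 4 tested were called, and Alb and Apoa1 were at background. All 4 had a positive difference, with a median of 0.18. Neutrophil and lymphocyte markers were mostly undetected, 15 of 17. The smooth muscle list had 1 called higher of 6 (Acta2), which was its 1 positive difference, against 5 negative ones. The mesothelial, adipose and blood lists had 0 called of 3 tested genes each. Differences were all negative in the mesothelial list and all positive in the adipose and blood lists. The interferon list had 2 called higher of 21 (Ifit2 and Rtp4) and the acute phase list 2 of 11 (Serpina3n and Lcn2), with 0 lower in either. Positive and negative differences numbered 17 and 4 in the interferon list, and 5 and 6 in the acute phase list.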

How the data were processed

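Cardiac RNA of 16 mice was measured, 1 Illumina MouseRef-8 array per mouse. The authors averaged bead replicates in Genome Studio. The deposited non-normalized intensity of each probe falls below 0 on some probes, so background had been subtracted, and the deposited detection p-value beside it comes from negative control beads. The authors' normalized intensity (cubic spline) served as an alternative.

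The neqc function of limma 3.58.1 (R 4.3.3, offset 16) corrected the intensities for background, normalized them by quantiles and returned log2 values. Probes with detection p under 0.05 on at least 3 of 4 arrays of any group were kept, 12246 of 25697, of which 11557 are named. Group means were fitted with limma, with an intensity trend in the moderation, and adjusted by Benjamini-Hochberg over all kept probes. The BeadChip term of the study's model could not be fitted, because no label gives the chip. Where a gene had several kept probes, the brightest stood for it.

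The components, the complement, cell type and response lists and the motifs were chosen with earlier results of these data known. Genes named besides the components are the complement genes called in any contrast, a fixed set of complement genes called or not, the 5 genes most like C1q, a fixed set of macrophage markers, Esr1 and Myh6; members called in other lists are named where a sentence gives them all. The model was tested on simulated data. Plots came from Python 3.11 with matplotlib 3.10.9. The number of arrays limits the precision.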

Additional observations from a re-analysis of the deposited data

Results flagged for a closer look

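In the groups of 4 hearts, 80 groups of values of the 20 tested complement genes were checked for a heart far from the rest, and 2 were found. Chance alone gives about 1 in 20 such groups. C1qb in female cs-ERα-/- replicate 2 was the lowest of its group at 10.81, with the next heart at 10.96 and the highest at 10.99, and this heart still lay above every WT female. C1qbp in male WT replicate 3 was the lowest of its group at 10.56, with the next heart at 10.77 and the highest at 10.80.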

How the results depend on the processing

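The genotype difference of each of the 5 tested components kept its sign in all 9 settings and without each of the 16 arrays. C4b kept its call throughout. C1qb lost it when arrays were scaled by their medians, not by quantiles (0.36, adjusted p = 0.0541 from limma), and C1qc there (0.31, adjusted p = 0.123) and in the ordinary linear model (adjusted p = 0.0508). Serping1 lost it in 4 of 9 settings (adjusted p up to 0.590, with median scaling), and C1qa gained it without male cs-ERα-/- replicate 2, male WT replicate 3 or female WT replicate 2. Why calls changed was not tested.

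With median scaling 1 component was called by genotype and 0 in females, and the probes called in all were 131 by genotype, 79 by sex, 46 in males and 31 in females, against 458, 155, 117 and 87. The share called higher was then 77.1% by genotype (101 higher, 30 lower), against 65.1% (298 and 160), and 65.8% by sex (52 and 27), against 50.3% (78 and 77). Without the intensity trend 56 probes were called in males and 32 in females, and 0 components in females. The ordinary linear model called 2 components by genotype and 0 in females, and 80 probes by sex, 38 in males and 26 in females. On the authors' values, a setting chosen after seeing the data, it called 75 by sex, 37 in males, 25 in females and 0 components in females. Leaving out 1 array gave 3 to 5 components by genotype and 0 to 4 in females, and 54 to 128 probes in males and 35 to 95 in females. Interactions stayed at 0 in every setting. Each component has 1 probe, so averaging probes was not run.

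Replicate numbers are not stated to pair mice, and 7 of 24 same-numbered pairs of arrays had deviations that correlated above 0.1 (-0.11 to 0.20), while 9 of 16 arrays correlated best with their own number. With the replicate number as a block, 537 probes and 4 components were called by genotype, 178 probes by sex, and 137 probes in males. In females 112 probes and 3 components were called, C1qa (adjusted p = 0.0461 from limma) in place of C4b (0.0556).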
